A study of Rattus norvegicus with 16 samples.

Results

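Primary rat hippocampal neurons carrying a PRR7 lentivirus were set against neurons that had received no virus, with 4 samples on each side of the 16 in the series. The members were chosen by their source labels alone: samples OE1 to OE4 were labelled as overexpressing Prr7, and samples NO1 to NO4 as not transduced. All 8 came from cultures of hippocampi taken from Sprague-Dawley embryos of embryonic day 18 to 19, of either sex, and the design text names the samples of a group as biological replicates. OE neurons carried full-length PRR7 in the lentiviral vector FUGW, whereas NO neurons carried neither vector nor transgene, so PRR7 and transduction itself cannot be told apart in this comparison. The other 8 samples, of a non-targeting shRNA lentivirus (NT) and of a PRR7 knockdown lentivirus (KD), were on another slide and served only to share the estimate of spread and to give side-by-side levels. One free-text label of the samples describes adult dentate gyrus of hormone-treated rats, which conflicts with all other labels and was not used.

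PRR7 (proline rich 7) is a small transmembrane adaptor protein of the postsynaptic density, the protein scaffold beneath excitatory synapses. It has been described to travel to the nucleus after NMDA receptor stimulation and to bind c-Jun there, slowing the ubiquitination that marks c-Jun for degradation. c-Jun forms AP-1, a dimeric transcription factor of Jun and Fos family proteins. Some AP-1 subunits, such as Fos and Junb, are themselves products of immediate early genes, which respond to synaptic activity without new protein synthesis. The comparison asks what raised PRR7 does to the transcriptome of these neurons, in particular to Jun, its targets, glutamate receptors and death genes.

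RNA was measured on Agilent rat expression arrays, each hybridised with 2 samples of one group, replicates 1 and 3 in Cy3 and replicates 2 and 4 in Cy5. Values are normalised log2 intensities, so a difference of 1 is 2-fold, and differences are given as OE minus NO with their standard error (SE). The test was limma's moderated test with dye as a term and the array as a random block, with Benjamini-Hochberg adjustment over 22922 genes, and a gene was called at an adjusted p under 0.05. Between 51.1% and 68.7% of probes were well above background in the 8 samples, and 0.758% to 2.15% of spots carried an outlier flag. No probe was named Prr7, listed a Prr7 RefSeq accession or held the shRNA target, so the overexpression itself could not be checked on these arrays. The number of arrays, 2 per group, limits the precision of every value.

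A single gene, Eftud2, was called, which is 0.00436% of the genes tested. Eftud2 encodes a GTPase of the U5 small nuclear ribonucleoprotein, a core part of the spliceosome. Its log2 intensity was 12.86 in OE1 and 12.92 in OE2, and 11.17, 11.31 and 11.11 in NO1, NO2 and NO3, while the spots of OE3, OE4 and NO4 were flagged and left out. The groups did not overlap, and the difference was 1.71 (SE 0.17; 3.27-fold, 95% interval 2.53 to 4.24; limma adjusted p = 0.00805).

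The array carries 2 probes for Eftud2, and only the first gave this difference. The first 30 of the 60 bases of each probe are shown because the probes of this gene disagree, at chr10:92012348-92012407 for the first and chr10:92012868-92013090 for the second, in the array's rn4 annotation.
Eftud2 first probe: atctgggaactggtatggggccatctgaac
Eftud2 second probe: caccattggcagattgtccccggtgatccg
The second probe differed by -0.04 (SE 0.16). On the scanner's processed signal of the first probe, with flagged spots included, the 4 NO samples lay between 2552 and 3500, and the 4 OE samples between 7478 and 8997. The NT samples lay between 5836 and 8054 and the KD samples between 8011 and 9687 at the same probe, above every NO sample, on the other slide and without normalisation between arrays. At the second probe the 4 OE samples (4753 to 5266) fell inside the range of the 4 NO samples (4579 to 5505). The Eftud2 call was lost when the 8 samples were fitted without the other groups (limma adjusted p = 0.635), without OE1 (0.0505), without OE2 (0.0629) and without NO3 (0.0939).

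At an unadjusted p under 0.05, limma gave 893 genes, or 3.9%, of which 392 were higher and 501 lower in OE. Groups without overlap between the 4 OE and 4 NO samples were found for 1307 of the 21380 genes with all 8 values, or 6.11%, with 399 higher (1.87%) and 908 lower (4.25%). The median difference over all genes was -0.01, and 47.1% of genes had a positive difference. The middle 90% of genes lay between -0.26 and 0.28.

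Arrays of one group differed about as much as arrays of different groups. The SD across genes of the group difference, over 4 samples a side, was 0.188 log2 units. The 2 arrays of OE differed from each other with an SD of 0.281 and the 2 arrays of NO with an SD of 0.307, over 2 samples a side, and an array of OE differed from one of NO with an SD of 0.249 to 0.305. The 8 samples did not fall apart by treatment along the first principal component, which held 30.6% of the variance. On it, replicates 1 and 2 of both groups lay between -19.6 and -12.1, and replicates 3 and 4 of both groups between 3.00 and 24.6. Along the second component (21.8%), OE3 and OE4 lay at -23.3 and -21.9 and NO3 and NO4 at 17.8 and 12.7, while replicates 1 and 2 lay between 0.11 and 11.5. Along the third component (19.0%), NO1 and NO2 lay at 20.8 and 10.1 and OE1 and OE2 at -10.4 and -21.2. On it, NO3 and NO4 lay at 9.07 and -15.1 and OE3 and OE4 at 2.66 and 4.08. The labels give no batch for replicates 1 and 2 against 3 and 4, which lay on different arrays in each group.

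**Figure D1:**
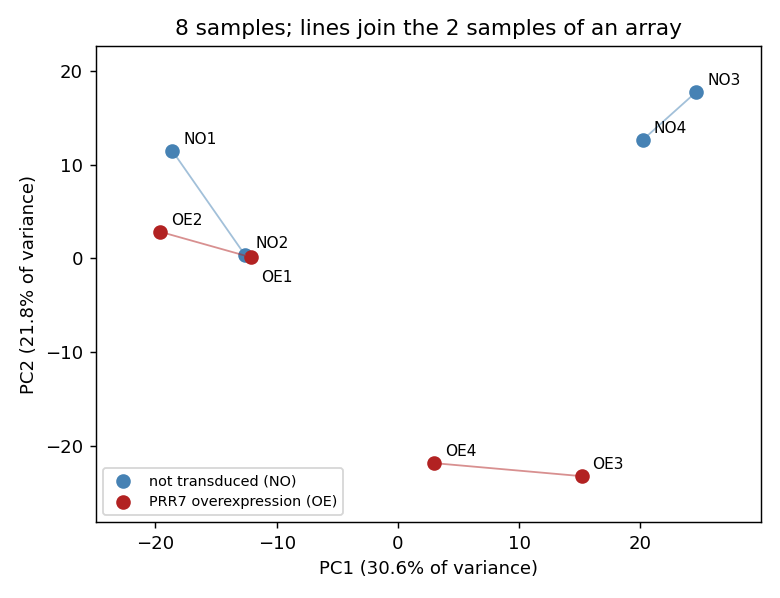
First and second principal components of the 8 samples over all genes with 8 values, with the share of variance on each axis, blue for NO, red for OE, and a line joining the 2 samples of each array. Replicates 1 and 2 of both groups lie together at the left, between -19.6 and -12.1, and on the components shown the groups part only among replicates 3 and 4.

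The intervals set limits on what PRR7 overexpression with transduction changed in these cultures. The 95% interval of the difference lay within 1.5-fold in both directions for 17614 genes (76.8%) and within 2-fold for 22054 genes (96.2%). The median half-width of the interval was 0.323 log2 units, or 1.25-fold. Genes were split by expression level into 4 bins of equal size. From the dimmest to the brightest, 89.7%, 79.1%, 67.7% and 70.8% of genes were held within 1.5-fold. The dimmest bin spanned mean log2 levels of 6.99 to 7.65. At such levels the offset of 50 added in background correction draws differences towards 0, so that bin's share is no tighter limit. Over all genes, 37.2% were held within 1.5-fold with the scanner's processed signal and 24.1% with the deposited series matrix. With these, 70.8% and 91.8% were held within 2-fold, and 74.1% with 75th percentile scaling. The 2-fold limits given for gene lists below hold for the processing as reported. For 868 genes the interval reached past 2-fold, and the data there do not hold the difference to 2-fold.

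Large estimated differences were few, and nearly all of them were in genes whose arrays within a group were as far apart. An estimated difference of at least 1.5-fold was seen for 300 genes (1.31%), 179 higher and 121 lower, and of at least 2-fold for 60, with 44 higher and 16 lower. In 56 of these 60 genes, the 2 arrays of one group differed from each other by at least 2-fold. When limma was run without one array at a time, 38 genes were called without the array of OE1 and OE2, 41 without that of OE3 and OE4, 6 without that of NO1 and NO2 and 33 without that of NO3 and NO4. The 4 others were Eftud2, T2, Actl6b, a subunit of the neuronal BAF chromatin remodelling complex, and the unnamed transcript AA924304, named here after their values were seen. For Eftud2 in OE and Actl6b in NO, both spots of an array were flagged, so the 2 arrays of that group could not be compared. Among the 60 genes, 14 of the 44 higher ones, T2 and AA924304 included, were well above background in no NO sample, and 2 of the 16 lower ones in no OE sample, so that they passed the filter on dim probes without the group that was lower. Actl6b had values of 11.08, 11.03, 10.77 and 11.16 in OE1 to OE4 against 9.77 and 10.21 in NO1 and NO2, with NO3 and NO4 flagged, and differed by 1.02 (SE 0.25; limma adjusted p = 0.790). Genes with more than 1 probe gave a further check: over 3124 such genes, the sign of the difference was the same at both probes in 57.4%. Of 29 genes with at least 1.5-fold at the tested probe, 18 had the same sign at the second probe and 0 reached 1.5-fold there.

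**Figure D2:**
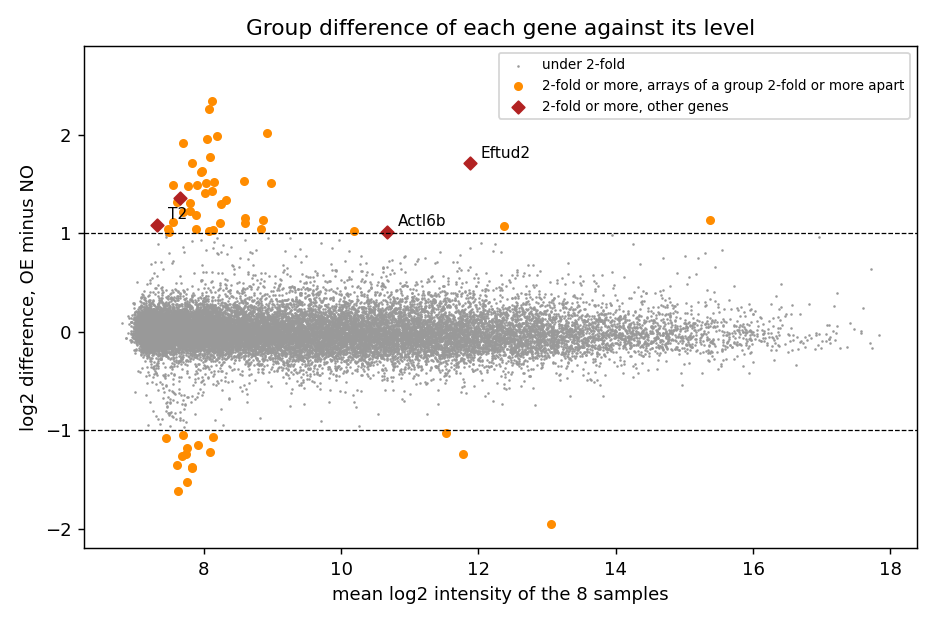
Log2 difference of each gene (OE minus NO) against its mean log2 intensity over the 8 samples. Orange points are the 56 genes at least 2-fold apart (dashed lines) whose arrays within a group were also at least 2-fold apart. Red diamonds are the 4 others, with the 3 named genes labelled. For Eftud2 and Actl6b, flagged spots left the arrays of a group without a comparison.

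Below Eftud2, the genes with the smallest p that were higher in all 4 OE samples than in any NO sample did not pass the adjusted threshold. Ccndbp1, which encodes a cyclin D1 binding protein, had values of 9.23, 9.17, 9.09 and 9.20 in OE1 to OE4 and of 8.19, 8.62, 8.15 and 8.41 in NO1 to NO4. Its difference was 0.83 (SE 0.15; limma adjusted p = 0.322). Nampt, the rate-limiting enzyme of NAD salvage, had values of 9.59, 9.91, 9.24 and 9.65 against 8.72, 8.93, 8.47 and 9.01, a difference of 0.82 (SE 0.16; limma adjusted p = 0.322). The lowest OE sample lay above the highest NO sample for both genes. In NT and KD, whose neurons carried a lentivirus without the PRR7 insert, the mean levels were 8.91 and 9.09 for Ccndbp1 and 9.86 and 9.61 for Nampt, nearer to OE than to NO, on the other slide.

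The remaining leading genes on the higher side were T2 (1.08), Lzts2 (0.71), E2f5 (0.68), Mpo (0.63), Naa20 (0.62), Rgs19 (0.51) and Bcl2l2 (0.39), with adjusted p-values from 0.322 to 0.790 in limma. T2 was dim and not well above background in any NO sample, with 7.67, 7.51, 8.56 and 7.70 in OE against 6.81, 6.70, 6.95 and 6.65 in NO, and its means of 6.81 in NT and 6.91 in KD lay at the NO level. Mpo was also not well above background in any NO sample. Set against a background floor in NO, the OE mean was an estimated 2.04-fold higher for T2 and 1.55-fold higher for Mpo. Here NO took, in each sample, the higher of the probe's own signal and the lowest signal of any probe above background. These estimates leave out the spread between samples and are not lower limits. The intervals of the fitted difference reached down to 1.56-fold for T2 and 1.22-fold for Mpo. Naa20, the catalytic subunit of the NatB N-terminal acetyltransferase, had means of 10.61 in OE, 9.99 in NO, 10.98 in NT and 10.81 in KD. Mpo, the myeloperoxidase of neutrophils, had means of 7.73 in OE, 7.09 in NO, 6.87 in NT and 7.00 in KD. A second probe did not give the difference of Lzts2 (-0.002) or of Bcl2l2 (-0.02), the anti-apoptotic Bcl-w, and gave 0.15 (SE 0.14) for Rgs19, a regulator of G protein signalling.

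Among genes lower in OE, the smallest p belonged to Nefh, the heavy neurofilament subunit of the axonal cytoskeleton. Nefh had values of 8.33, 8.38, 8.47 and 8.36 in OE1 to OE4 and of 8.91, 9.07, 9.53 and 9.55 in NO1 to NO4. The OE samples lay close together and the NO samples were spread more widely, with no overlap. The difference was -0.88 (SE 0.16; 95% interval -1.23 to -0.54; limma adjusted p = 0.322), at a probe at chr14:85595648-85595707 (rn4). Over 29 alternative settings its difference ran from -1.29 to -0.60, and Nefh was called in 3 of them. It was called in the deposited series matrix values (-1.29, limma adjusted p = 0.0454), where the median of all genes was -0.17. The other calls came without the array of NO1 and NO2 (-1.16, limma adjusted p = 0.0382) and without the array block (-0.88, limma adjusted p = 0.0236).

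Nit1, a nitrilase family amidase, had 13.56, 13.58, 13.38 and 13.42 in OE against 14.15, 14.13, 14.25 and 14.02 in NO, a difference of -0.65 (SE 0.13; limma adjusted p = 0.322). Mustn1, a small nuclear protein described in the musculoskeletal system, had 10.33, 10.01, 10.05 and 10.10 against 10.97, 10.88, 10.85 and 11.16, a difference of -0.84 (SE 0.17; limma adjusted p = 0.322). Neither pair of groups overlapped. The others were Cort (-0.96), Lgi2 (-0.76), Npy (-0.74), Nppc (-0.64), Pvalb (-0.48) and Arc (-0.45), with limma adjusted p-values from 0.626 to 0.790. Lgi2 is a secreted leucine-rich repeat protein and Nppc the precursor of C-type natriuretic peptide. Npy, Cort and Pvalb are products of inhibitory interneurons and are described with the interneuron markers.

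**Figure D3:**
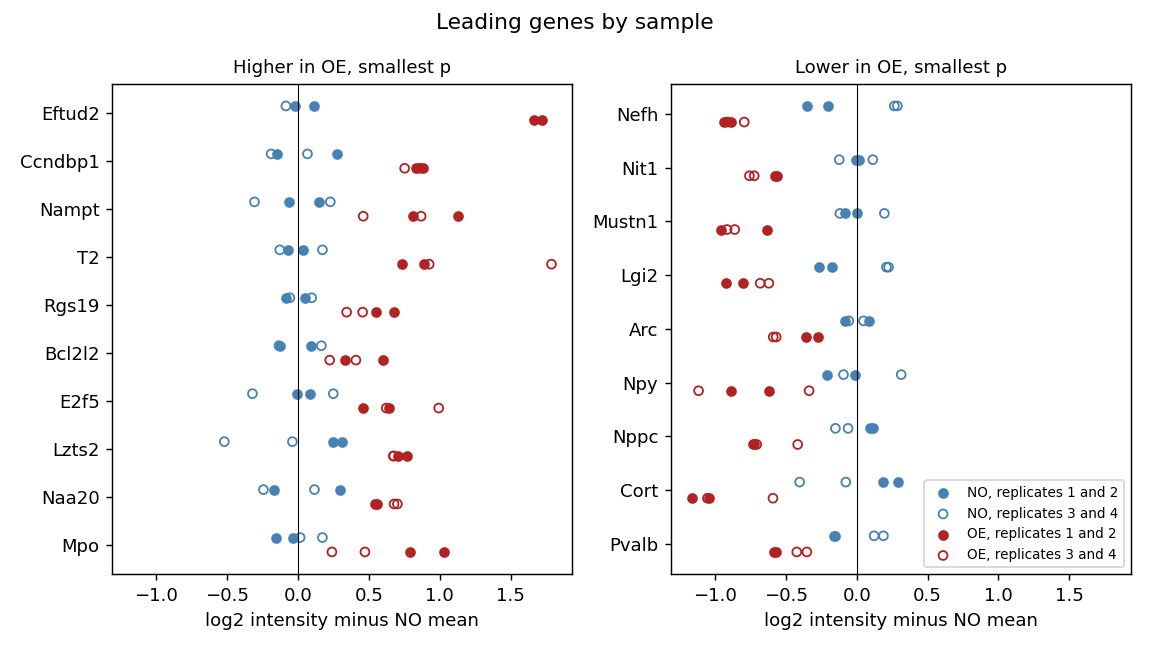
Log2 intensity of 19 leading genes in each sample, minus the mean of the NO samples of that gene, blue for NO and red for OE, filled for replicates 1 and 2 and open for replicates 3 and 4. The OE samples lie clear of the NO samples in every gene shown, as the choice of genes requires, T2 and Mpo were not well above background in NO, and flagged spots are left out (OE3, OE4 and NO4 of Eftud2).

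Lists of related genes were used to look for small shifts shared by a family. The 34 lists held 765 genes, of which 677 were measured, and no member of any list passed the test. List medians ran from -0.13 to 0.19, with 15 above 0 and 19 below. For each list a score per sample was taken, the mean of its members' log2 values after each gene was centred on its mean of the 8 samples. In 3 of the 34 lists the scores of the 4 OE samples did not overlap those of the 4 NO samples, beside 6.11% of single genes. These were immediate early genes, pan-neuronal markers, and AMPA and kainate receptors. The nearest OE and NO scores were -0.043 and -0.013, -0.064 and -0.047, and 0.015 and -0.004. Each gap was smaller than the list's pooled SD within groups (0.062, 0.105 and 0.041).

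Immediate early genes leaned lower. Of 27 measured members, 19 were lower in OE and 8 higher, with a median of -0.12 beside -0.01 for all genes, and 0 passed the adjusted test. The list score was between -0.12 and -0.04 in the 4 OE samples and between -0.01 and 0.18 in the 4 NO samples. Of the 25 members with all 8 values, 4 had groups without overlap, all lower, where 4.25% of all genes did. At an unadjusted p under 0.05 there were 5 lower members and 0 higher ones, where 2.19% and 1.71% of all genes were.

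Arc, which encodes a dendritic protein that promotes AMPA receptor endocytosis, had 10.49, 10.57, 10.26 and 10.28 in OE1 to OE4 against 10.76, 10.94, 10.79 and 10.89 in NO1 to NO4. Its difference was -0.45 (SE 0.10; 95% interval -0.66 to -0.23; limma adjusted p = 0.626), at chr7:112772025-112772084 (rn4). Arc levels differed more widely between slides, with means of 12.22 in NT and 11.30 in KD. Rgs2, an inhibitor of Gq signalling, had 11.32, 11.59, 11.60 and 11.62 against 12.14, 11.85, 11.99 and 12.19, a difference of -0.51 (SE 0.15). Junb, an AP-1 subunit, had 9.37, 9.07, 9.32 and 9.00 against 9.61, 9.61, 9.85 and 9.54, a difference of -0.46 (SE 0.14).

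Bdnf, the brain-derived neurotrophic factor, had 9.55, 9.57, 9.53 and 9.49 against 9.70, 10.17, 9.87 and 9.87. Its difference was -0.37 (SE 0.14), and a second Bdnf probe gave -0.34 (SE 0.12). In all 4 genes, the members with the smallest p, the highest OE sample lay below the lowest NO sample. The sign of their differences was kept in 29 of 29 alternative settings. Many of these settings leave out samples or refit the same values, where groups without overlap can hardly change sign, so this count adds little. Nr4a3, an orphan nuclear receptor, differed by -0.30 (SE 0.12). The activity markers Egr1 and Fos differed by 0.19 (SE 0.26) and -0.07 (SE 0.30), with overlapping groups in each, and Npas4 was not well above background in any of the 8 samples. The list median was -0.05 without the array of NO1 and NO2 and -0.22 without that of NO3 and NO4. The intervals of all 27 members lay within 2-fold, and those of 12 within 1.5-fold.

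AP-1 binds the TPA response element TGACTCA, which was searched with any base in the middle as TGANTCA, a wider pattern that also takes in other letters. Pairs of Jun with ATF proteins bind TGACGTCA, the cAMP response element. Both patterns cover both strands and cannot overlap as the same site. Promoters of 250 bases before and 50 after the start were taken from RefSeq (GRCr8), where 24 of the 28 listed immediate early genes had an entry. The stretches below show the motif in capitals with up to 60 bases on each side, as printed 5′ to 3′ on the gene's strand. They were chosen as immediate early genes whose promoter holds either pattern before the start. They are not all such genes, since a chromosome was left out of this choice and Fos and Arc had no promoter entry. The match in Bdnf has an A in the middle and is not the TPA response element itself.
Ier2 chr19:40399247-40399372 (+): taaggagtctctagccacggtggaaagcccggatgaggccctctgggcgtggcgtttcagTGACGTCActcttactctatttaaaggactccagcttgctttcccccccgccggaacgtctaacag
Dusp1 chr10:17184669-17184796 (+): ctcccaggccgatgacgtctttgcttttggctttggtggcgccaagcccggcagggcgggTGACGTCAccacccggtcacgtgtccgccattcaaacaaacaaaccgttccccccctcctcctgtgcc
Btg2 chr13:48087824-48087940 (-): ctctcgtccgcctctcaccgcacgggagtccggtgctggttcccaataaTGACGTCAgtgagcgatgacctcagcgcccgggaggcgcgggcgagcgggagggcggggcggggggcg
Bdnf chr3:116621759-116621885 (+): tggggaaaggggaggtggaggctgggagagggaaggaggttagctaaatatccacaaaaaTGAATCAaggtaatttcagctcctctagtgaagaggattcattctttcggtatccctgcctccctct
Ier2 differed by -0.36 (SE 0.20), Dusp1, a phosphatase of JNK and other MAP kinases, by -0.24 (SE 0.18), and Btg2, an antiproliferative gene, by -0.01 (SE 0.22), with overlapping groups in each. Over all promoters, TGANTCA was found in 7.33% and TGACGTCA in 1.83%. The 561 measured genes with TGANTCA had a median difference of -0.02, as did all 10112 measured genes with a promoter. The 313 with TGACGTCA had a median of -0.05, and 38.3% of them were higher in OE, beside 44.4% of all genes with a promoter. No gene with either motif was called.

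Jun itself did not differ detectably. Its log2 intensity was 11.86, 12.21, 12.35 and 12.21 in OE1 to OE4 and 11.90, 12.61, 12.56 and 12.19 in NO1 to NO4, so that the groups overlapped. The difference was -0.16 (SE 0.27; limma unadjusted p = 0.563), and its 95% interval ran from 0.598-fold to 1.34-fold. RNA does not report on c-Jun protein, whose stability is the step PRR7 has been described to affect. Of 15 measured AP-1 factors, 10 were lower and 5 higher, with a median of -0.04. The Fos relatives Fosl1 and Fosl2 differed by -0.01 (SE 0.15) and -0.04 (SE 0.16), and Jund by -0.18 (SE 0.30).

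Genes described as targets of c-Jun or AP-1 had no shared direction, with 14 of 25 measured members higher, 11 lower and a median of 0.03. Of the 23 members with all 8 values, 3 had groups without overlap on the lower side and 1 on the higher side. Over all genes the shares were 4.25% and 1.87%. The 3 lower members were Npy (-0.74, SE 0.17), Plaur (-0.25, SE 0.13) and Gal. Gal, the neuropeptide galanin, had 8.07, 8.22, 8.49 and 8.54 in OE against 8.54, 8.97, 8.80 and 8.76 in NO, a difference of -0.44 (SE 0.16). Its highest OE and lowest NO sample met at 8.54, and the unrounded groups did not overlap. Ccn2, a matricellular growth factor, differed the other way by 0.39 (SE 0.18) with overlapping groups. The JNK cascade, which phosphorylates c-Jun, had 8 of 19 members higher with a median of -0.02, and the c-Jun ubiquitin ligases 6 of 12 with a median of -0.02. All 19 members of the JNK list were held within 2-fold.

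Among apoptosis genes, 13 of 23 were higher with a median of 0.01, and 22 of 23 were held within 2-fold. Bid, a pro-apoptotic Bcl-2 protein, had 10.18, 10.47, 9.89 and 10.20 in OE against 9.83, 9.93, 9.07 and 9.40 in NO, a difference of 0.63 (SE 0.18; limma adjusted p = 0.99995). The groups overlapped through OE3 and NO2, and a second Bid probe gave 0.03 (SE 0.14). Targets of p53 had a median of 0.02, with 11 of 19 members higher. Bbc3, the pro-apoptotic Puma, which c-Jun can induce, differed by -0.33 (SE 0.23).

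NMDA receptor subunits, the receptor family upstream of the described nuclear entry of PRR7, gave 4 higher and 3 lower of 7. Grin1, the obligatory subunit, had 13.59, 13.61, 13.60 and 13.67 in OE against 13.67, 13.65, 13.79 and 14.02 in NO, a difference of -0.16 (SE 0.13), with 0.11 (SE 0.16) at a second probe. Grin2a differed by -0.24 (SE 0.15), Grin2b by -0.04 (SE 0.09), Grin2c by 0.27 (SE 0.28), Grin2d by 0.34 (SE 0.20), Grin3a by 0.03 (SE 0.13) and Grin3b by 0.10 (SE 0.14). Every one of these groups overlapped, and all 7 intervals lay within 2-fold.

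AMPA and kainate receptor genes had the highest median of any list, 0.19, with 10 of 15 higher and 5 lower. The score lay between 0.02 and 0.11 in OE and between -0.10 and -0.004 in NO. The pore-forming AMPA subunits Gria1, Gria2, Gria3 and Gria4 differed by 0.28 (SE 0.18), 0.24 (SE 0.14), 0.30 (SE 0.14) and 0.04 (SE 0.13), and the kainate subunits Grik1, Grik4 and Grik5 by 0.19, 0.26 and 0.25. Members of the list named neither here nor in the next paragraph were mostly lower. Gria2, the subunit that makes the channel impermeable to calcium, had 12.84, 12.86, 12.80 and 13.18 in OE against 12.48, 12.82, 12.64 and 12.78 in NO, overlapping through OE3 and NO2. Second probes gave smaller values, 0.15 (SE 0.14) for Gria2 and 0.08 (SE 0.19) for Gria3.

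Auxiliary subunits of the same receptors went both ways. Cacng3, an AMPA receptor regulatory protein that assists traffic to the synapse, had 11.38, 11.16, 11.28 and 11.12 in OE against 11.69, 11.59, 11.61 and 11.46 in NO, without overlap, a difference of -0.35 (SE 0.14; limma adjusted p = 0.99995). Cacng2 (stargazin) differed by -0.20 (SE 0.16), whereas Cacng8 differed by 0.26 (SE 0.17) and Cacng4 by 0.20 (SE 0.15), both with overlapping groups. The list median was 0.06 without the array of NO1 and NO2, 0.08 in Cy5 samples and 0.12 without the filter on dim probes. In the deposited series matrix values the list median turned to -0.03, where the median of all genes was -0.17.

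Postsynaptic density scaffolds, the compartment PRR7 belongs to, had 17 of 25 members lower and a median of -0.05. Shank3, a master scaffold, had 12.97, 12.83, 12.62 and 12.56 in OE against 13.05, 13.10, 13.05 and 13.21 in NO, a difference of -0.36 (SE 0.13). Dlgap3, which links PSD-95 to Shank proteins, had 9.40, 9.37, 9.26 and 9.26 against 9.71, 9.66, 9.56 and 9.53, a difference of -0.29 (SE 0.13). Neither gene's groups overlapped, and these 2 were the only ones of 24 scaffold genes with all 8 values to separate, near the 6.11% of all genes. All 25 intervals lay within 2-fold.

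**Figure D4:**
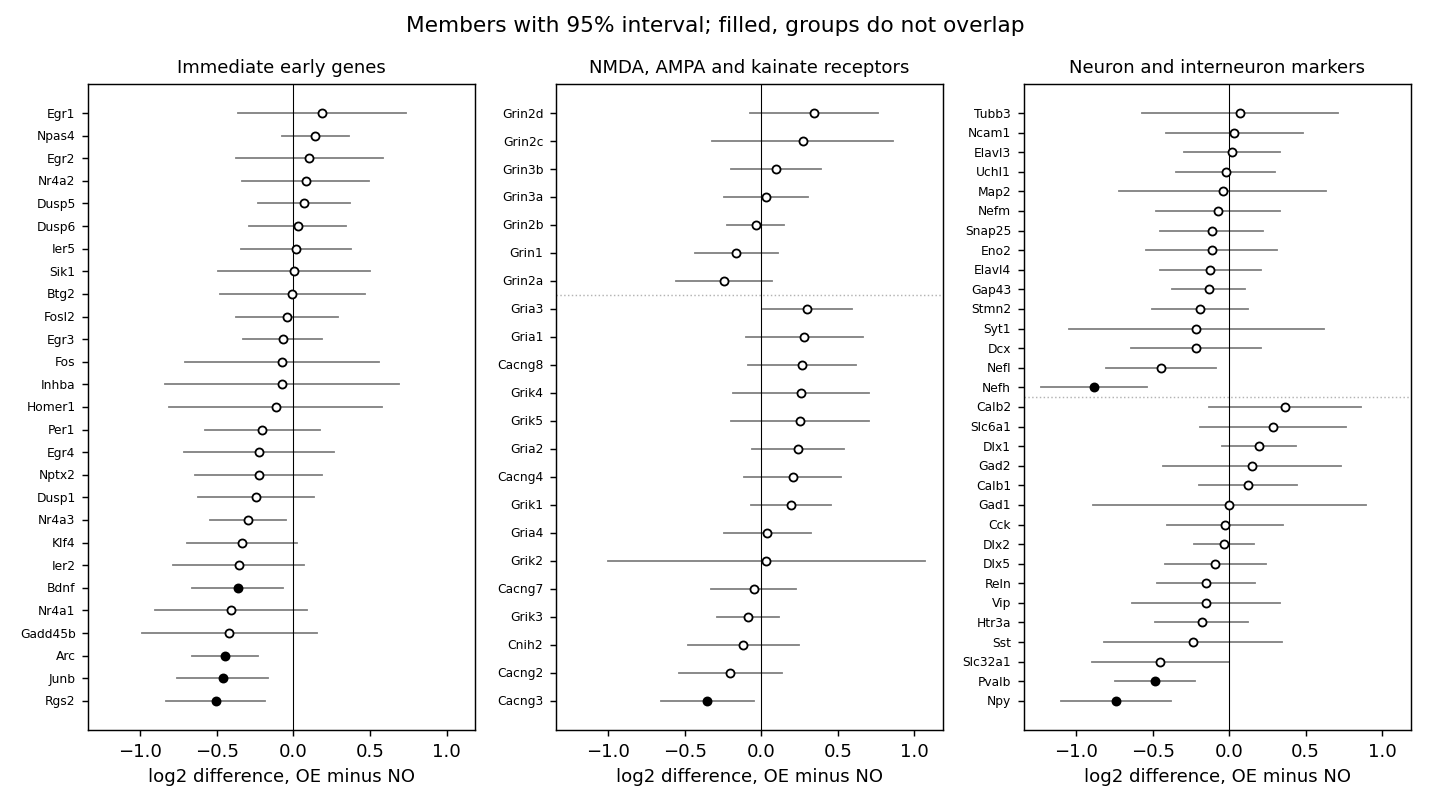
Log2 difference (OE minus NO) with 95% interval for each measured member of the immediate early genes, the NMDA (above the dotted line) and AMPA or kainate receptors (below), and the pan-neuronal (above) and interneuron markers (below). Filled points are genes whose 4 OE and 4 NO samples do not overlap: Arc, Bdnf, Junb and Rgs2 among immediate early genes, Cacng3 among receptors, and Nefh, Npy and Pvalb among markers.

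Markers of the cells in the culture were then compared. In such bulk samples, fewer cells of a type and less RNA per cell cannot be told apart. Pan-neuronal markers were measured for 15 of 16 listed genes, with 12 lower, 3 higher and a median of -0.11. The score lay between -0.14 and -0.06 in OE and between -0.05 and 0.30 in NO, with NO4 the highest. Nefl, the light neurofilament subunit, had 13.44, 13.01, 13.42 and 13.32 in OE against 13.70, 13.36, 14.06 and 13.84 in NO, overlapping through OE1 and NO2, a difference of -0.44 (SE 0.17). The medium subunit Nefm differed by only -0.07 (SE 0.19). Stmn2 and Gap43, growth-cone proteins, differed by -0.19 (SE 0.14) and -0.13 (SE 0.11). Without the array of NO3 and NO4, the list median was 0.005.

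Interneuron markers had 10 of 16 members lower, with a median of -0.06. Npy, a peptide of hippocampal interneurons, had 11.82, 12.09, 11.60 and 12.37 in OE against 12.50, 12.70, 12.62 and 13.02 in NO, a difference of -0.74 (SE 0.17; limma adjusted p = 0.626). Pvalb, the calcium-binding parvalbumin, had 7.52, 7.54, 7.76 and 7.69 against 7.95, 7.96, 8.30 and 8.23, a difference of -0.48 (SE 0.12; limma adjusted p = 0.790). Cort, the peptide cortistatin, which was on no list, had 9.70, 9.58, 9.69 and 10.15 against 11.04, 10.93, 10.34 and 10.67, a difference of -0.96 (SE 0.24; limma adjusted p = 0.776). In each of the 3 genes all OE samples lay below all NO samples, but the same was not seen for Gad1 (0.003) and Gad2 (0.15), the enzymes that make GABA, or for Sst (-0.24, SE 0.27). Slc32a1, the vesicular GABA transporter, differed by -0.45 (SE 0.21).

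Excitatory markers had a median of 0.02, with Fezf2, a transcription factor of projection neurons, at 12.14, 12.36, 12.23 and 12.32 in OE against 11.56, 11.39, 11.79 and 11.96 in NO. Its difference was 0.59 (SE 0.18; limma adjusted p = 0.99995) and the groups did not overlap. Slc17a7, the vesicular glutamate transporter of excitatory neurons, differed by 0.27 (SE 0.23).

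Astrocyte markers were present, so the cultures were not neurons alone. Of the listed markers, 19 of 19 for astrocytes were measured. The counts were 11 of 16 for microglia, 11 of 16 for oligodendrocytes and 11 of 19 for vascular cells and fibroblasts. These lower counts do not show such cells to be present, since 27294 of the 41012 probes on the array were tested. Astrocyte markers had 13 of 19 higher and a median of 0.17. Their score was 0.01, 0.02, 0.06 and 0.36 in OE1 to OE4 and 0.03, 0.04, 0.01 and -0.54 in NO1 to NO4, so that the difference rested on OE4 and NO4, both Cy5. In Cy3 samples the median was -0.05 and in Cy5 samples 0.31. Gfap, the astrocytic intermediate filament, was 10.96 in NO4 and between 12.52 and 13.26 in the 7 others. Aqp4, the astrocytic water channel, was 12.56 in NO4 and between 13.40 and 14.45 in the 7 others. The NO4 sample was also the highest of the 8 in the pan-neuronal score, and its part in the neuronal and synaptic differences was read by leaving it out: the pan-neuronal median was then -0.07 and the immediate early median -0.15.

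Hes5, a Notch target in progenitors and astrocytes, had 8.09, 7.88, 9.75 and 9.41 in OE against 7.78, 7.65, 7.62 and 7.68 in NO, a difference of 1.10 (SE 0.33; limma adjusted p = 0.99995), with OE3 and OE4, on 1 array, far above OE1 and OE2. Microglial markers had a median of 0.01. Lyz2, a lysozyme of myeloid cells, had 8.62, 8.67, 8.61 and 8.92 in OE against 9.18, 9.18, 9.41 and 9.27 in NO, a difference of -0.55 (SE 0.17; limma adjusted p = 0.99995). Csf1r, the receptor that microglia depend on, differed by -0.40 (SE 0.20) with all 4 OE samples lower, while C1qb and Cd68 differed by 0.01 (SE 0.22) and 0.15 (SE 0.13).

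Lists for responses to a virus were read because OE neurons alone were transduced. Interferon response genes had 18 of 23 members higher and a median of 0.11. The median was -0.02 in Cy3 samples and 0.19 in Cy5 samples, and the score was -0.17 in NO4 and between -0.07 and 0.15 in the 7 others. Innate sensing genes had 6 of 11 higher and a median of 0.04, with 10 of 11 held within 1.5-fold. Inflammation genes had 8 of 13 higher, a median of 0.05 and 10 of 13 held within 1.5-fold.

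Housekeeping families were read last. Proteasome subunits had 24 of 32 members lower with a median of -0.08, and all 32 were held within 2-fold. Stress response genes had 20 of 27 lower with a median of -0.11, and cholesterol synthesis genes 15 of 23 lower with a median of -0.13, the lowest of any list. The cholesterol difference was uneven, with a score of 0.40 in NO4 and -0.26 in OE4, and with a median of -0.01 in Cy3 and -0.28 in Cy5 samples. Proteins of the large and small ribosomal subunits had medians of -0.01 and -0.03, and respiratory chain genes -0.03, with 53 of 53 within 2-fold.

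**Figure D5:**
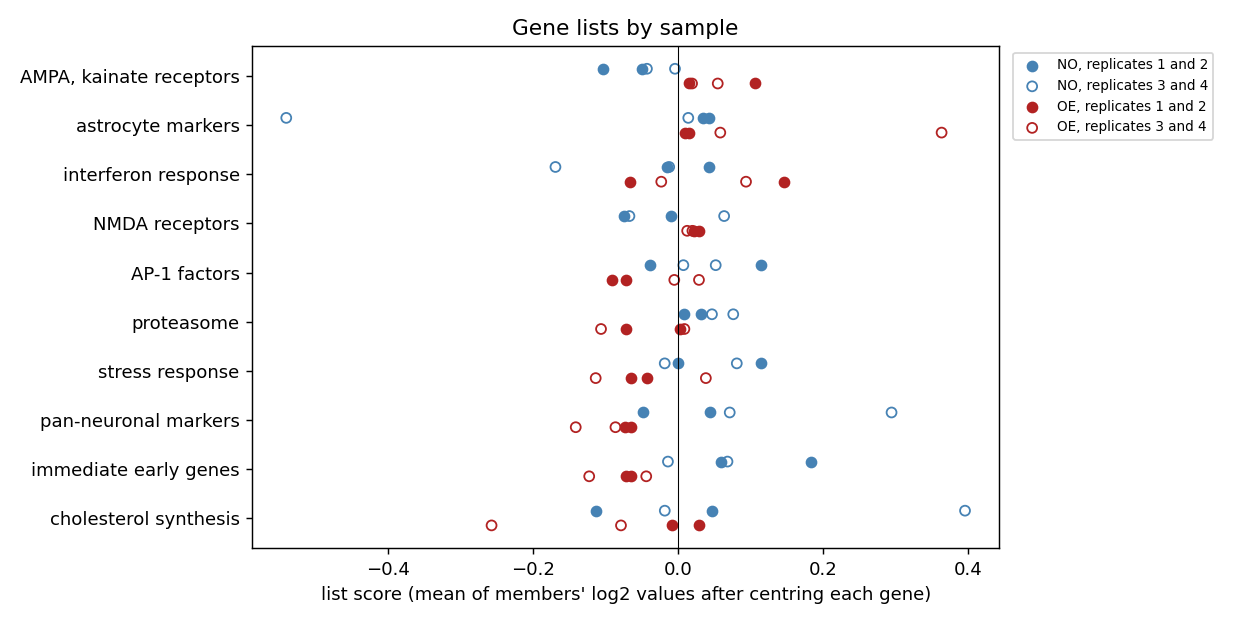
Score of 10 gene lists in each sample, the mean of the members' log2 values after each gene was centred over the 8 samples, blue for NO and red for OE, filled for replicates 1 and 2 and open for replicates 3 and 4. The groups are narrowly apart for AMPA and kainate receptors, pan-neuronal markers and immediate early genes, by less than the pooled SD within groups. NO4 lies far out for astrocyte markers (-0.54) and cholesterol synthesis (0.40).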

How the data were processed

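The deposited scanner files hold linear spot intensities of 2-colour arrays, extracted with Agilent Feature Extraction 10.7.3.1 per the submitters' processing notes; local background is given per spot, and each sample's values were taken from the channel of its own dye. The deposited series matrix holds log2 values, which matched the log2 median signal minus background of each sample, centred on its median; it was used as an alternative only.

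Mean signals were background-corrected (normexp, offset 50), normalised by loess within each array (controls weighted 0) and by Aquantile between arrays, with outlier-flagged spots left out, in R 4.3.3 with limma 3.58.1. A probe was tested where 4 or more samples, of any group, had it well above background (27294 probes), and the probe with the highest mean stood for its gene. Symbols came from RefSeq, which named 21282 of 41012 probes. The fit held all 16 samples, with terms for group and dye, and shared arrays entered as a block (consensus correlation 0.569); left-out-sample fits reused that correlation. It was tested on simulated data.

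Named genes were the called gene, the genes with non-overlapping groups and the smallest p up to 10 in each direction, Jun and the Jun, Fos and NMDA receptor families, up to 4 list members with the smallest p, and the 2 highest-level markers of each marker list; others are given where their values bear on a list, and some genes under this rule are not reported here. The members and lists were chosen with earlier results of these data known.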

Additional observations from a re-analysis of the deposited data

Results flagged for a closer look

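In 6 of 150 groups of 4 samples looked at, over the genes and list scores described, 1 sample lay further from the other 3 than Dixon's 95% limit allows; chance gives about 5% of groups. The astrocyte marker score was 0.364 in OE4, beside 0.0099 to 0.0588 in the other OE samples, and -0.540 in NO4, beside 0.0146 to 0.0428 in the other NO samples. The same NO4 sample had an ion channel score of 0.164, beside -0.0397 to -0.0253 in the other NO samples. Both samples were labelled with Cy5 and lay on different arrays, and their part in the astrocyte difference can be read from the Cy3 samples, where the list median was -0.05. Nppc was 10.09 in OE4, beside 9.77 to 9.80 in the other OE samples, and Gria2 was 13.18 in OE4, beside 12.80 to 12.86. Rgs2 was 11.32 in OE1, beside 11.59 to 11.62 in the other OE samples, so that its lowest sample stood apart within a group that was lower than NO in every sample.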

How the results depend on the processing

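The count of called genes, 1 in limma, was 2 with the scanner's processed signal, 34 without the array block, which treats the 2 dyes of an array as independent, and 6 with the deposited series matrix. It was 0 with 75th percentile scaling, with the 4 arrays of the slide alone, with the 8 samples fitted alone, with the dyes of an array averaged, with all probes of a gene averaged, and with Cy3 or Cy5 samples only, where 627 to 953 genes had an unadjusted p under 0.05. With only the 4 arrays of the slide, the second and then brighter Eftud2 probe stood for its gene, and the difference was -0.043. Leaving out a sample or an array gave 0 to 41 called genes, 1787 to 6036 genes without overlap, and an SD of differences of 0.188 to 0.258, with fewer samples to overlap. Genes without overlap, 1307 as reported, numbered 857 where all 8 samples had to be above background, 7995 in Cy3 and 6782 in Cy5 samples, and 10 in the series matrix. Genes held within 1.5-fold, 17614 as reported, were 8522 with the processed signal, 7621 with 75th percentile scaling, 4962 with the series matrix and 29824 of 35079 without the filter on dim probes, where 34016 were held within 2-fold. The share held within 2-fold, 96.2% as reported, was 70.8% with the processed signal, 74.1% with 75th percentile scaling and 91.8% with the series matrix. The SD of differences, 0.188 as reported, was 0.362 with the processed signal, 0.279 with 75th percentile scaling, 0.252 with the series matrix and 0.244 in Cy3 samples. The median of all genes moved to 0.10 with 75th percentile scaling (62.3% of genes higher) and to -0.17 with the series matrix (21.3%). The cause of these shifts was not tested.

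With the replicate number as a block, 0 genes were called and 2087 had an unadjusted p under 0.05. The numbers were not taken as pairs: same-numbered samples correlated at 0.25, 0.12, 0.20 and -0.18 in their deviations from the group means, and OE2 correlated best with NO1. A block of replicates 1 and 2 against 3 and 4, chosen after seeing the data, called 0 genes, and 2835 had an unadjusted p under 0.05. Both of these fits lacked the array block and so treated the 2 dyes of an array as independent.

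Over 29 alternatives, the medians of immediate early genes (-0.29 to -0.05), stress response, proteasome, cholesterol and metabotropic glutamate receptor lists kept their sign in all. AMPA and kainate receptors and pan-neuronal markers kept it in 28. So did the synaptic vesicle, respiratory chain, interferon, interneuron, oligodendrocyte and astrocyte lists, although the astrocyte difference rested on OE4 and NO4. A kept sign therefore does not set the lists described apart. Of 986 list medians under alternatives, 113 moved by over 1 SD between replicates. Of 4774 values of named genes, 117 had the other sign, 27 passed the threshold anew and 11 values of Eftud2 no longer did. Signal over background limits the rest: 51.1% to 68.7% of probes per sample were well above it.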
